A study of Mus musculus with 23 samples.

Results

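The dystrophin and utrophin complex was followed through 8 of its genes, taken as a named list and matched by symbol to the Ensembl IDs of a table of read counts with 55573 genes. The 8 genes were Dmd (dystrophin), its paralog Utrn (utrophin), Dag1 (dystroglycan), the sarcoglycan genes Sgca, Sgcb and Sgcd, Sspn (sarcospan) and Dtna (alpha-dystrobrevin). Each symbol matched 1 gene ID, and all 8 genes were among the 13049 that passed the filter on low counts. The counts came from bulk RNA sequencing of quadriceps, the main knee extensor of the thigh, of 23 C57Bl6 mice aged 8 to 10 weeks. Each mouse carried a slow-release pellet under the skin for 14 days. A corticosterone pellet held 50 mg of corticosterone, the main glucocorticoid of mice, and 50 mg of cholesterol, and a vehicle pellet held 100 mg of cholesterol. There were 6 vehicle-treated and 6 corticosterone-treated male mice, and 6 vehicle-treated and 5 corticosterone-treated female mice, all fasted for 5 hours before death. The comparisons ask how corticosterone changes muscle gene expression in each sex and whether the sexes respond alike.

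Dystrophin links the actin cytoskeleton of a muscle fiber to dystroglycan in the fiber membrane, and dystroglycan holds laminin in the basement membrane outside. The sarcoglycans and sarcospan sit in the membrane beside dystroglycan and steady this link, while dystrobrevin and the syntrophins bind dystrophin from within and carry signalling proteins. Utrophin is built like dystrophin and in adult fibers is best known from the neuromuscular junction. Loss of dystrophin causes Duchenne muscular dystrophy, and loss of a sarcoglycan causes a limb-girdle muscular dystrophy.

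Counts on genes were of like depth in all mice (20904150 to 21984477 per mouse), and each of the 8 genes had between 387 counts (Sgcd) and 8475 counts (Dag1) in every mouse. Levels of one gene between mice are given as CPM (a gene's counts relative to the library's total), scaled by the trimmed mean of M values (TMM). The markers fitted skeletal muscle, since Acta1, Ckm, Myh4, Myh1 and Tnnt3 together made up 64150 CPM or more in every mouse. They were not chosen to tell quadriceps from other muscles. A pair of corticosterone-treated female mice, F6 and F10, had the lowest muscle fiber marker sums, 80460.4 CPM and 64150.1 CPM, against 100026 CPM or more in the other 21 mice. F6 also had the highest sum of 5 adipocyte markers (3502 CPM), and 5 mice (F6, F10, M8, M9 and M12) had hepatocyte marker sums of 998 to 2246 CPM, against at most 283 CPM elsewhere. Slow fiber markers summed to 787 CPM or more in 9 mice spread over the 4 groups and to at most 142 CPM in the others. Values are given with and without such mice where they change a result. In whole muscle, fewer cells of a type and less RNA per cell cannot be told apart. Fkbp5, a classical target of the glucocorticoid receptor, rose in treated mice of both sexes (males log2FC 3.36 ± 0.30 (SE), adjusted p = 6.73e-08; females log2FC 3.05 ± 0.30 (SE), adjusted p = 1.77e-06). Per1, another such target, rose in males (log2FC 1.40 ± 0.30 (SE), adjusted p = 9.93e-04) and had a log2FC of 0.29 in females (adjusted p = 0.52).

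In corticosterone-treated male mice, 3 of the 8 genes rose (Dmd, Dtna and Dag1) and Sspn fell. These 4 calls compare with 26.3% of all 13049 genes called in males at an adjusted p-value of 0.01 by edgeR's quasi-likelihood test, 13.2% higher and 13.1% lower. In corticosterone-treated female mice only Dmd passed the test among the 8 genes, where 13.4% of all genes were called, 7.40% higher and 6.0% lower. The median log2FC of the 8 genes was 0.31 in males and 0.37 in females, beside -0.02 and 0.04 over all genes. Treated and vehicle-treated males did not overlap for Dmd, Dtna, Dag1 and Sspn, as for 21.9% of all genes. Treated and vehicle-treated females did not overlap for Dmd alone, as for 7.72% of all genes.

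**Figure D1:**
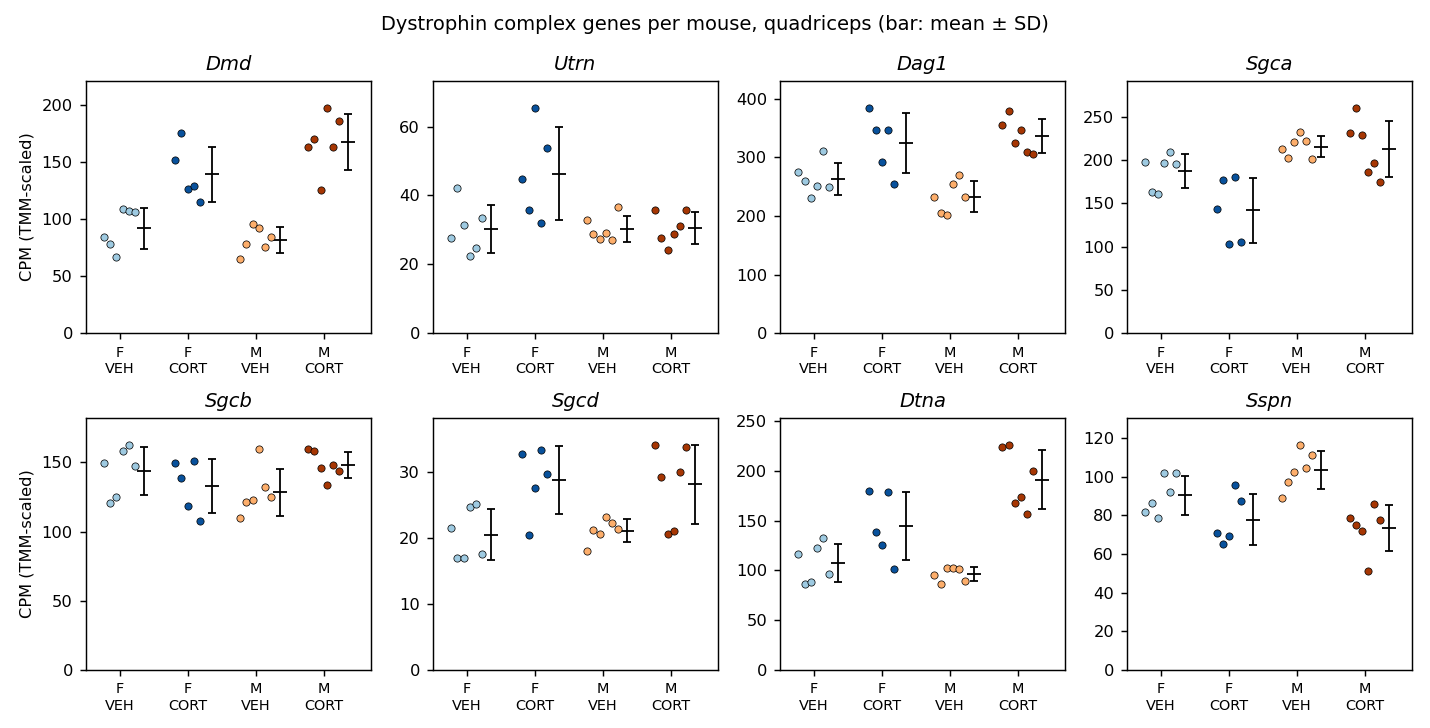
Level of each of the 8 genes in every mouse, in TMM-scaled CPM on a linear axis that starts at 0, for vehicle-treated (VEH) and corticosterone-treated (CORT) female (F) and male (M) mice. Points are mice and the bar beside each group is the mean ± SD (n = 6, or 5 for treated females). All treated males lie above all vehicle-treated males for Dmd, Dag1 and Dtna and below them for Sspn.

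Dmd, which encodes the long rod-shaped link between actin and the membrane, spans 2257 kb of the X chromosome (chrX:82948870-85206141, plus strand, GRCm38). Its levels in vehicle-treated males were 64.6 at the lowest, 81.3 at the median and 96.0 at the highest, and in corticosterone-treated males 126 at the lowest, 167 at the median and 198 at the highest (CPM). The male groups did not overlap, with all 6 treated mice higher. Dmd rose 2.05-fold in males (log2FC 1.04 ± 0.14 (SE), adjusted p = 6.05e-06). Vehicle-treated females had 66.9 at the lowest, 95.1 at the median and 109 at the highest CPM, and the treated females had 152 (F2), 176 (F4), 126 (F6), 129 (F8) and 115 (F10). The treated females lay above the vehicle-treated ones, with a gap between F10 and the highest vehicle-treated female that was small beside the spread of either group. Dmd rose 1.52-fold in females (log2FC 0.60 ± 0.14 (SE), adjusted p = 0.0039). The female call was lost without vehicle-treated F1 (adjusted p = 0.0101), without treated F2 (adjusted p = 0.012) or without treated F4 (adjusted p = 0.011), with log2FC values of 0.51 to 0.58. It was also lost with each sex fitted alone (adjusted p = 0.027) and without the 9 mice with slow fiber markers (adjusted p = 0.03), and kept without both F6 and F10 (log2FC 0.72). Leaving out those 9 mice left only F4 and F6 as treated females.

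The promoters of Dmd are shown because it was the one member called in both sexes. RefSeq (GRCm38.p6) gives a pair of Dmd promoter windows of 300 bases, each running from 250 bases before a start site to 50 bases from it, and the promoters of Dag1 and Utrn stand beside them as a gene that rose in males and the paralog that did not pass the test in either sex. Capitals mark the hexamer that each arm of a glucocorticoid receptor site carries (TGTTCT, or AGAACA on the other strand) and, in the first Dmd window, also a CArG box, the site of serum response factor.
Dmd, upstream start, chrX:82948620-82948919, plus strand: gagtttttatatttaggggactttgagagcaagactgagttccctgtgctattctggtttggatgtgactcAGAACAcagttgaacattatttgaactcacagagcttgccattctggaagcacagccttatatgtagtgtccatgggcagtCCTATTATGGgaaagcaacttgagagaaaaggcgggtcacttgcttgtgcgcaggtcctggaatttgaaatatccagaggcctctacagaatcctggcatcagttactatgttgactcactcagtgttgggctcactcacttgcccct
Dmd, downstream start, chrX:85048045-85048344, plus strand: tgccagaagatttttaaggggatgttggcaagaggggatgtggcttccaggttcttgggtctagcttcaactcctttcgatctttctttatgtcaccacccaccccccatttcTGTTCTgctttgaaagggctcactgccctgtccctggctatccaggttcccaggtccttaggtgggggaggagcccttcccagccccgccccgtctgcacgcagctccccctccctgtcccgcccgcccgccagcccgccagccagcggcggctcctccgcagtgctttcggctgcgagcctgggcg
Dag1, chr9:108263909-108264208, minus strand: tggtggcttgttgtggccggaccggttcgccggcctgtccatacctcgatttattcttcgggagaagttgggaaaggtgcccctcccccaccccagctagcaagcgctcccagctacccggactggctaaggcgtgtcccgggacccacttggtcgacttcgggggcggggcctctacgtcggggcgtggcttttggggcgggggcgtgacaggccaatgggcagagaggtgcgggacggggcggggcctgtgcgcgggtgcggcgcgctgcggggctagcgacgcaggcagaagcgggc
Utrn, chr10:12861686-12861985, minus strand: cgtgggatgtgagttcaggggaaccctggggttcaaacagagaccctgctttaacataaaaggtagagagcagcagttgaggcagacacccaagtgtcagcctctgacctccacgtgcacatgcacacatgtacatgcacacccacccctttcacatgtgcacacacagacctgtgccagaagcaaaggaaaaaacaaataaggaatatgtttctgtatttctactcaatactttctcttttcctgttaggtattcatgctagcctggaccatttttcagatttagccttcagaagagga
The RefSeq table held 10 promoter windows for 7 of the 8 genes and none for Dtna. A second Dag1 window (chr9:108263766-108264065) overlaps the one shown. The hexamer was found in 2 of the 10 windows, both of Dmd. That is a share like the 19% of all 32851 windows that held one on either strand. The CArG box was found in the upstream Dmd window only among the 10, and 1.63% of all windows held one. The full receptor site contains the hexamer on each strand (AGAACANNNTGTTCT, in 0.00913% of all windows) and was not found in these 10 windows. Nor were a MEF2 site, searched with any 4 middle bases (CTANNNNTAG, 3.69%), and the CAGCTG form of the E-box (16.3%). Other forms of the E-box were not searched. Matches describe letters in a window and not bound sites. The Utrn window lies inside the annotated gene, whose minus-strand start is at 12869365, and the downstream Dmd window lies inside the Dmd gene. Whether quadriceps uses these starts was not tested.

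Utrn, which encodes the dystrophin-like link of the neuromuscular junction (chr10:12382188-12869365, minus strand), did not pass the test in males. Its level in vehicle-treated males was 27.0 at the lowest, 28.9 at the median and 36.7 at the highest CPM, and in treated males 24.1 at the lowest, 29.9 at the median and 35.8 at the highest CPM. The male groups overlapped nearly over their whole range (log2FC 0.01 ± 0.16 (SE), adjusted p = 0.96, 95% interval -0.33 to 0.35). In vehicle-treated females it was 22.3 at the lowest, 29.5 at the median and 42.1 at the highest CPM, and the treated females had 44.8 (F2), 35.9 (F4), 65.4 (F6), 32.0 (F8) and 53.8 (F10). All 5 treated females lay above the vehicle mean, but F4 and F8 lay inside the vehicle range. The female difference missed the threshold by little (log2FC 0.62 ± 0.17 (SE), adjusted p = 0.0105, 95% interval 0.26 to 0.97), and it passed with DESeq2 (adjusted p = 0.0035) and with limma-voom and sample quality weights (adjusted p = 0.0039). F6 and F10, the mice with the lowest muscle fiber marker sums, had the highest Utrn levels of all 23 mice. Without both, the female log2FC was 0.30 (adjusted p = 0.28). Endothelial markers, from another cell type that expresses utrophin, summed to 232 to 347 CPM in treated females and 183 to 404 CPM in vehicle-treated ones. Neuromuscular junction markers summed to 67 to 128 CPM and 88 to 214 CPM in the same groups. Schwann cell markers summed to 198 (F10), 169 (F2), 109 (F6), 59 (F8) and 57 CPM (F4) in treated females. In vehicle-treated females they summed to 39 to 158 CPM. Adipocyte markers summed to 3502 (F6), 1637 (F2), 1511 (F10), 527 (F4) and 25 CPM (F8), against 50 to 1557 CPM with vehicle. F6, F10 and F2 were also the treated females with the most Utrn. Macrophage markers summed to 127 CPM in F6 and 156 CPM in F10, the highest of all 23 mice, and their sums were 52 to 156 CPM in treated and 45 to 92 CPM in vehicle-treated females, where none of the 5 markers passed the test. Erythrocyte markers summed to 292 to 601 CPM in treated and 85 to 397 CPM in vehicle-treated females, and 4 of 5 rose. No macrophage or erythrocyte marker was at 0 in any mouse. The part of other cell types in the Utrn levels was not tested.

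Per kilobase of annotated exon, the scale on which genes can be compared, Dmd exceeded Utrn in every mouse. The ratio of Utrn to Dmd was 0.525 ± 0.114 (SD, n = 6) in vehicle-treated males and 0.255 ± 0.036 in corticosterone-treated males. The male groups did not overlap (0.394 to 0.706 against 0.202 to 0.305). Utrn had a log2FC of 0.01 in males, so this fall restates the rise of Dmd and is no separate result. In females the ratio was 0.485 ± 0.183 with vehicle and 0.483 ± 0.192 (n = 5) with corticosterone, with ranges of 0.285 to 0.751 and 0.284 to 0.72. Both female groups covered nearly the same range of the ratio. Among the treated females, F6 (0.720) and F10 (0.651), the mice with the lowest muscle fiber marker sums, had the highest ratios. F2, F4 and F8 had 0.411, 0.284 and 0.346. The ratio of Dag1 to Dmd per kb was 10.9 ± 2.20 and 7.66 ± 1.31 in vehicle-treated and treated males. In the female groups it was 11 ± 1.88 and 8.79 ± 1.05, and treated and vehicle-treated mice overlapped in both sexes. Over the longest transcript, Dag1 to Dmd averaged 7.65 and 5.39 in the male groups and 7.73 and 6.18 in the female groups. Utrn to Dmd averaged 0.455 and 0.221 in males and 0.419 and 0.418 in females on that length. These ratios are a description without a test.

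**Figure D2:**
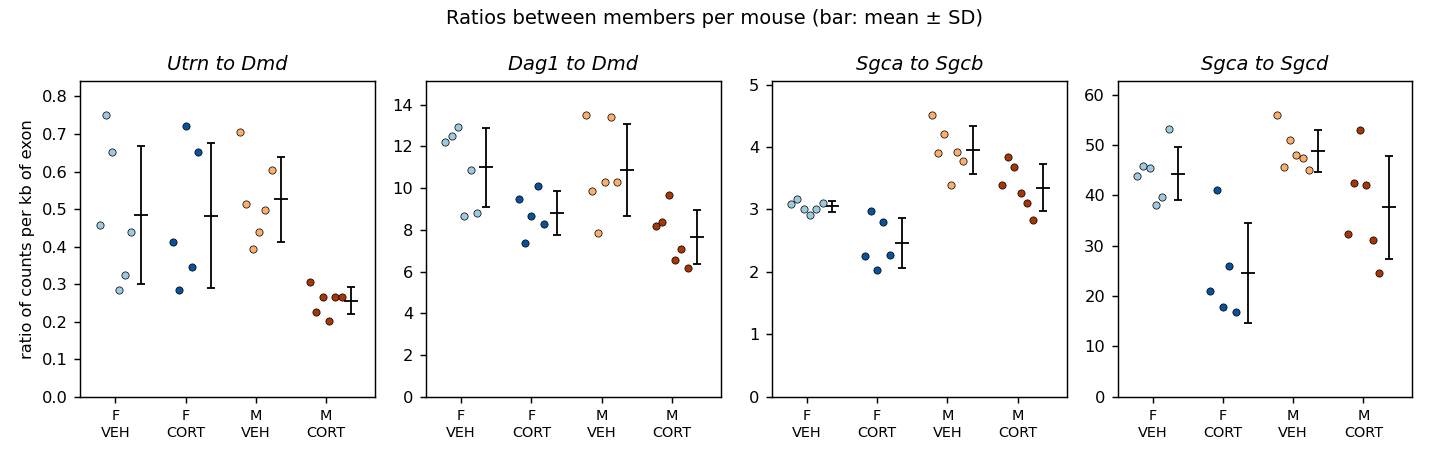
Ratio of counts per kb of exon between pairs of members in every mouse, on linear axes that start at 0, with the mean ± SD beside each group. For Utrn to Dmd, treated males lie at 0.202 to 0.305, below all vehicle-treated males, while the female groups overlap.

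Dag1 encodes both chains of dystroglycan, the laminin receptor at the centre of the complex (chr9:108204634-108263958, minus strand). Vehicle-treated males had 202 at the lowest, 233 at the median and 270.1 at the highest CPM, and treated males had 306 at the lowest, 335 at the median and 380.2 at the highest CPM. The male groups were apart, and Dag1 rose 1.45-fold (log2FC 0.53 ± 0.10 (SE), adjusted p = 2.80e-04). Vehicle-treated females had 231 at the lowest, 256 at the median and 311 at the highest CPM, and the treated females had 385 (F2), 347 (F4), 293 (F6), 347 (F8) and 254 (F10). F6 and F10 lay within the vehicle range and the other 3 above it. The female difference did not pass the test (log2FC 0.31 ± 0.11 (SE), adjusted p = 0.035). Without F6 and F10 it did (log2FC 0.44, adjusted p = 0.0092).

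Among the sarcoglycans, which form a ring of membrane proteins beside dystroglycan, no gene passed the test in either sex. Sgca (alpha-sarcoglycan, chr11:94962791-94976327, minus strand) had 202 at the lowest, 217 at the median and 233 at the highest CPM in vehicle-treated males and 174 at the lowest, 213 at the median and 260.3 at the highest CPM in treated males. The treated males spread on both sides of the vehicle range (log2FC -0.02 ± 0.13 (SE), adjusted p = 0.94, 95% interval -0.29 to 0.25). Vehicle-treated females had 161 at the lowest, 196 at the median and 210.0 at the highest CPM, and the treated females had 144 (F2), 177 (F4), 103 (F6), 181 (F8) and 105 (F10). All 5 treated females lay below the vehicle mean, and F6 and F10 had the lowest Sgca of all 23 mice (log2FC -0.40 ± 0.14 (SE), adjusted p = 0.034). Without both, the log2FC was -0.18 (adjusted p = 0.38), whereas limma-voom with quality weights called the full groups (log2FC -0.49, adjusted p = 0.0056). Sgcb (beta-sarcoglycan, chr5:73632749-73647790, minus strand) had 110.0 at the lowest, 124 at the median and 160.1 at the highest CPM in vehicle-treated males and 134 at the lowest, 147 at the median and 159.6 at the highest CPM in treated males. All 6 treated males were above the vehicle mean, but one vehicle-treated male, M7, was above all of them (log2FC 0.21 ± 0.10 (SE), adjusted p = 0.11, 95% interval -0.00 to 0.41). In females Sgcb was 121 at the lowest, 148 at the median and 163 at the highest CPM with vehicle, and the treated females had 149 (F2), 138 (F4), 118 (F6), 151 (F8) and 108 (F10). The female groups overlapped (log2FC -0.12 ± 0.11 (SE), adjusted p = 0.45, 95% interval -0.33 to 0.10). Sgcd (delta-sarcoglycan, chr11:46896253-47988969, minus strand) had 18.1 at the lowest, 21.3 at the median and 23.1 at the highest CPM in vehicle-treated males and 20.6 at the lowest, 29.6 at the median and 34.1 at the highest CPM in treated males. Of the treated males, M6 and M8 lay within the vehicle range and the other 4 above it (log2FC 0.42 ± 0.14 (SE), adjusted p = 0.024). Vehicle-treated females had 16.9 at the lowest, 19.5 at the median and 25.2 at the highest CPM, and the treated females had 32.8 (F2), 20.4 (F4), 27.5 (F6), 33.2 (F8) and 29.7 (F10). F4 lay within the vehicle range and the other 4 above it (log2FC 0.49 ± 0.15 (SE), adjusted p = 0.018). The estimates of Sgcd were close in size in both sexes, 0.42 and 0.49, and in the full set of mice both were past a threshold of 0.05 but not of 0.01. Sgcd passed 0.01 in males without treated M6 (adjusted p = 0.0087) and in females without treated F4 (adjusted p = 0.0036). Without the 9 mice with slow fiber markers, which left 2 treated females, the female value was 0.09 (adjusted p = 0.77) and the male value 0.48 (adjusted p = 0.036).

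The proportions among the sarcoglycan genes were also set side by side. Per kb, Sgca stood to Sgcb as 3.05 ± 0.0913 in vehicle-treated females and 2.47 ± 0.401 in treated females, and as 3.95 ± 0.38 and 3.35 ± 0.374 in the male groups. The vehicle-treated females covered only 2.91 to 3.17, below every vehicle-treated male (3.40 to 4.51). The ratio of Sgca to Sgcd was 44.3 ± 5.31 and 24.5 ± 9.94 in the female groups. In the male groups it was 48.8 ± 4.10 and 37.6 ± 10.2. Over the longest transcript, its means were 24.1 and 13.3 in females and 26.5 and 20.4 in males. The size of this ratio thus depends on the length taken. For Sgca to Sgcd, treated and vehicle-treated mice overlapped in both sexes. The lowest ratio per kb of annotated exon, 16.8, was in a treated female.

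Sspn encodes sarcospan, a small protein with 4 membrane passes that binds the sarcoglycans (chr6:145931641-145965223, plus strand). Vehicle-treated males had 89.2 at the lowest, 104 at the median and 117 at the highest CPM, and treated males had 51.4 at the lowest, 76.4 at the median and 86.1 at the highest CPM. Every treated male was below every vehicle-treated male, and Sspn fell to 0.708 of the vehicle level (log2FC -0.50 ± 0.11 (SE), adjusted p = 0.0015). M8, a mouse with hepatocyte markers, was the lowest. Without the 5 mice with such markers the log2FC was -0.39 and no longer passed (adjusted p = 0.017). Vehicle-treated females had 78.6 at the lowest, 89.3 at the median and 102 at the highest CPM, and the treated females had 71.1 (F2), 65.5 (F4), 69.4 (F6), 96.0 (F8) and 87.4 (F10). F8 and F10 lay within the vehicle range, the other 3 below it, and the difference did not pass the test (log2FC -0.22 ± 0.12 (SE), adjusted p = 0.19, 95% interval -0.46 to 0.03). An antisense transcript, Sspnos, overlaps 69 bases of Sspn exons on the other strand, and the counting used the strand.

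Dtna encodes alpha-dystrobrevin, a dystrophin relative on the inner face of the membrane (chr18:23415135-23659715, plus strand). Vehicle-treated males had 86.4 at the lowest, 98.6 at the median and 102 at the highest CPM, and treated males had 156 at the lowest, 186 at the median and 226 at the highest CPM. The male groups were far apart, and Dtna rose 1.99-fold (log2FC 0.99 ± 0.14 (SE), adjusted p = 1.08e-05), a size close to that of Dmd. Vehicle-treated females had 86.4 at the lowest, 107 at the median and 132 at the highest CPM, and the treated females had 179.7 (F2), 139 (F4), 125 (F6), 179 (F8) and 101 (F10). F2, F4 and F8 lay above the vehicle range, F6 and F10 within it (log2FC 0.43 ± 0.14 (SE), adjusted p = 0.029). Without F6 and F10 the female difference passed (log2FC 0.62, adjusted p = 0.007). An antisense gene, Gm47898, overlaps 90 bases of Dtna exons on the other strand.

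**Figure D3:**
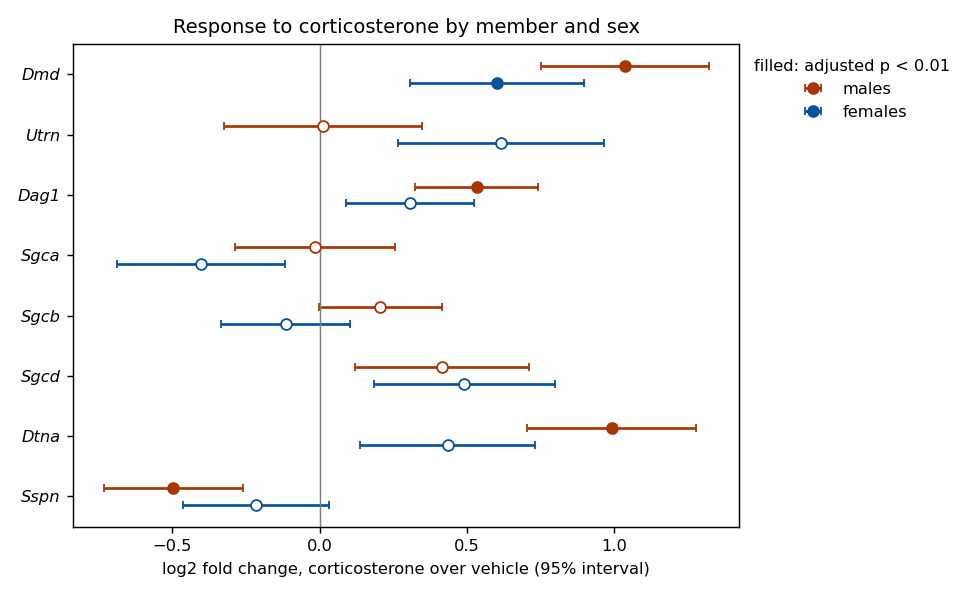
Log2 fold change of each gene for corticosterone over vehicle, in males and females, with 95% intervals from edgeR's quasi-likelihood fit. Filled points pass an adjusted p-value of 0.01. In males Dmd (1.04) and Dtna (0.99) lie near 1 and Utrn (0.01) at 0, and in females Dmd (0.60) is the filled point.

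Between genes, the order of levels per kb was the same in all 4 groups, from Sgca at the top through Dag1, Sgcb, Sspn, Dtna, Dmd and Sgcd to Utrn. In vehicle-treated males Sgca had 124 ± 6.90 CPM per kb, Dag1 36.6 ± 4.22 and Dmd 3.44 ± 0.488 (SD, n = 6). Utrn had 1.77 ± 0.222 CPM per kb in the same mice. Neighbours whose ranges overlapped were Dag1 and Sgcb with vehicle in both sexes, Dmd and Sgcd with vehicle in both sexes, and Sgcd and Utrn in both female groups. In treated females Sgca overlapped Dag1 and Dtna overlapped Dmd, and in treated males Sspn overlapped Dtna. Divided by the length of the longest transcript instead, Dtna stood above Sspn in both treated groups. The spread within a group was widest for Utrn and Sgca in treated females, where the coefficient of variation was 29.3% and 26.4%. In vehicle-treated females it was 23.4% and 10.7%. It was 15.2% and 15.3% in treated males and 12.5% and 5.56% in vehicle-treated males.

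The difference between the male and female responses was tested as a sex-by-treatment interaction. None of the 8 genes passed in edgeR, DESeq2 or limma-voom, where edgeR called 0.690% of all genes, and 4 had an unadjusted p under 0.05 in edgeR. These were Dtna (male minus female log2FC 0.56 ± 0.20, adjusted p = 0.065), Utrn (-0.60 ± 0.23, adjusted p = 0.085), Sgcb (0.32, adjusted p = 0.13) and Dmd (0.43, adjusted p = 0.14). The calls of Dag1, Dtna and Sspn in males alone are therefore not shown to differ between the sexes. With vehicle, none of the 8 genes differed between males and females past the threshold in the same tools, none had an unadjusted p under 0.05 in edgeR, and 0.958% of all genes were called. The largest estimate was that of Sgca, a log2FC of males over females of 0.20 (95% interval -0.07 to 0.47), and all 6 vehicle-treated males lay above the female mean.

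Between corticosterone-treated males and females, which are the same mice as in the comparisons with vehicle, 2 of the 8 genes differed, where 23.3% of all genes were called. Utrn was lower in treated males (30.5 ± 4.64 CPM) than in treated females (46.4 ± 13.6 CPM; log2FC -0.61 ± 0.17 (SE), adjusted p = 0.0078). Sgca was higher in treated males (213 ± 32.6 CPM) than in treated females (142 ± 37.5 CPM; log2FC 0.59 ± 0.14 (SE), adjusted p = 0.0024). Ranges overlapped for both genes. Without F6 and F10, neither passed: Utrn had a log2FC of -0.28 (adjusted p = 0.25) and Sgca of 0.37 (adjusted p = 0.043). The Utrn call was also lost without any single one of F2, F6, F10, M4, M6, M8 and M10, at log2FC values of -0.62 to -0.43. Fitting the replicate numbers of the mice as a block ended the Utrn call too. Dtna was higher in all 6 treated males than the female mean, with an adjusted p of 0.032 (log2FC 0.40). Without the 9 mice with slow fiber markers, the calls of Utrn and Sgca were lost (log2FC -0.64 and 0.63, adjusted p = 0.044 and 0.034), and Dtna was called (log2FC 0.67, adjusted p = 0.0059). F4 and F6 were the only treated females left in that set. Whether males and females were processed together is not given in the sources used here, so that sex and a batch of processing cannot be told apart.

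**Figure D4:**
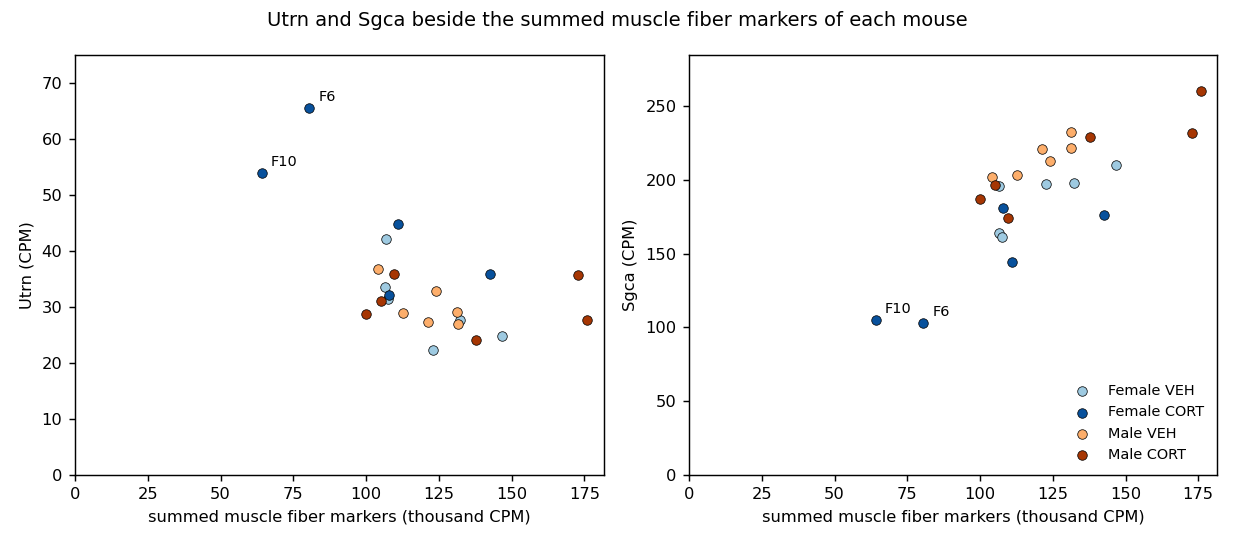
Utrn (left) and Sgca (right) in CPM against the summed CPM of 5 muscle fiber markers (Acta1, Ckm, Myh4, Myh1 and Tnnt3), 1 point per mouse, both axes linear from 0. F6 and F10, at 80460.4 and 64150.1 CPM of markers, have the highest Utrn and the lowest Sgca of the 23 mice.

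Across the 23 mice the 8 genes fell into unlike patterns of log2 CPM. Dag1 and Dtna varied together (Pearson r = 0.88, and 0.73 after the group means were subtracted). Dmd followed Dtna (r = 0.86) and Dag1 (r = 0.80), less so within groups (0.45 and 0.32). Utrn and Sgca ran in opposite directions (r = -0.84, within groups -0.75). Dmd and Utrn, the paralogs, had r = 0.13 over all mice. Sgcb followed Dtna and Sgca within groups (0.78 and 0.75). These values are descriptions over mice that share groups, libraries and scaling. Among all tested genes, the most like Dmd by Pearson r over the 23 mice were Crnkl1 (r = 0.94) and Tgs1 (r = 0.93), and the most like Dtna were Popdc2 (r = 0.96) and Pde4dip (r = 0.95). Popdc2 was also the most like Dag1 (0.92), followed by Tuba8 (r = 0.92). Utrn was most like Syde1 (r = 0.95) and Tacc1 (r = 0.94), and Sgca most like Dusp13 (r = 0.95) and Tnni2 (r = 0.95), the second encoding the troponin I of fast fibers. Sgcb was most like Ano5 (r = 0.88) and Spop (r = 0.86), Sgcd most like D5Ertd579e (r = 0.86) and Ccser2 (r = 0.78), and Sspn most like Glrx (r = 0.92) and Wipi1 (r = 0.91).

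The wider pathway was read from 5 lists. Of 9 other subunits and paralogs, 6 were tested, and Sgcz, Sntg1 and Sntg2 had too few counts. Sntb2, which encodes a syntrophin, fell in males (log2FC -1.02 ± 0.16 (SE), adjusted p = 5.18e-05), with a female log2FC of -0.17 (adjusted p = 0.47). Sntb1 had a log2FC of 1.95 in females that did not pass (adjusted p = 0.016), and Sgce, which encodes epsilon-sarcoglycan, one of 0.58 (adjusted p = 0.018). The list's median log2FC was -0.09 in males and 0.38 in females. Thus 1 gene fell in males, and in females none passed in edgeR, while 3 had an unadjusted p under 0.05, where 26.3% of all genes were called in males and 13.4% in females.

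Of 16 partners at the fiber membrane, 14 were tested (not Krt8 and Krt19). In males 4 rose and 2 fell, and in females 2 rose and 2 fell, that is 6 of 14 and 4 of 14, beside 26.3% and 13.4% of all genes. Des, which encodes the intermediate filament desmin, rose in males (log2FC 1.21 ± 0.14 (SE), adjusted p = 1.41e-06) and females (log2FC 0.64 ± 0.15 (SE), adjusted p = 0.0031). Ahnak, a giant membrane scaffold, rose by 0.59 in males (adjusted p = 8.16e-04) and 0.64 in females (adjusted p = 0.0012) on the log2 scale. Ank3 (ankyrin-G) and Cavin4, a coat protein of caveolae, rose in males, with log2FC 0.98 (adjusted p = 8.94e-06) and 0.55 (adjusted p = 0.0024). Nos1, the neuronal nitric oxide synthase, fell in males (log2FC -0.68 ± 0.19 (SE), adjusted p = 0.0073) and missed the threshold in females at a like size (log2FC -0.73, adjusted p = 0.011). The kinase gene Mark2 fell in both sexes (log2FC -0.26, adjusted p = 0.005, and -0.30, adjusted p = 0.0051), and Sync, which encodes the dystrobrevin-binding filament protein syncoilin, fell in females (log2FC -0.67, adjusted p = 6.55e-04). Without F6 and F10, the female calls of Sync, Ahnak and Mark2 were lost (log2FC -0.51, 0.49 and -0.30). The male Nos1 call was lost without any single male other than M1 or M12 (log2FC -0.70 to -0.62) and without the 9 mice with slow fiber markers (log2FC -0.50, adjusted p = 0.12). The male Mark2 call was lost without any one of M1, M4, M7, M8, M9, M10 and M11 (log2FC -0.26 to -0.22), and the female one without any one of F1, F2, F7 and F10 (log2FC -0.30 to -0.27). The female Des call was lost without F2 (log2FC 0.55) and without the slow fiber mice (log2FC 0.41), which left only F4 and F6 as treated females. The list's median was 0.04 in males and -0.22 in females.

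All 10 extracellular ligands of dystroglycan were tested. In males Lamb2 (laminin beta 2) rose (log2FC 0.44 ± 0.09 (SE), adjusted p = 7.78e-04) and Lamc1 (laminin gamma 1) fell (log2FC -0.48 ± 0.12 (SE), adjusted p = 0.0039). The Lamc1 call was lost without M12 (log2FC -0.45). The 2 male calls of 10 stand beside 26.3% of all genes called. In females none passed in edgeR, beside 13.4% of all genes, while 3 had an unadjusted p under 0.05, among them Lama4 (log2FC 0.91, adjusted p = 0.014). The median was -0.33 in males and 0.21 in females. Fibroblast markers moved in the same libraries: 3 of 5 (Col1a1, Col1a2 and Col3a1) fell in males, and their summed level was 321 to 486 CPM in treated and 878 to 1342 CPM in vehicle-treated males. No fibroblast marker was at 0 in any mouse. In females the sums were 503 to 1044 CPM and 743 to 1688 CPM, and their part in the ligand values was not tested.

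Of 17 genes that build the laminin-binding sugar chain of alpha-dystroglycan, 15 were tested (not Large2 and B4gat1). B3galnt2, which adds a sugar early in that chain, fell in both sexes (males log2FC -0.88 ± 0.22 (SE), adjusted p = 0.0038; females log2FC -0.90 ± 0.24 (SE), adjusted p = 0.008). Pomgnt2, another enzyme of the chain, fell in males (log2FC -0.40, adjusted p = 0.0035). In females Rxylt1 fell (log2FC -0.43, adjusted p = 0.007) and Dpm2 rose (log2FC 0.44, adjusted p = 0.0034). Thus 2 fell in males, and 1 rose and 2 fell in females, with list medians of 0.02 and 0.10. These 2 of 15 and 3 of 15 compare with 26.3% and 13.4% of all genes. Without F6 and F10, the female calls of B3galnt2, Rxylt1 and Dpm2 were lost (log2FC -0.60, -0.34 and 0.32). Without the 5 mice with hepatocyte markers, the male calls of Pomgnt2 and B3galnt2 were lost, as were those of Mark2 and Lamc1. Leaving out 1 mouse also ended calls, M8 for Pomgnt2 (log2FC -0.36), M7, M9 or M12 for B3galnt2 in males (log2FC -0.81 to -0.79), and F6 or F10 for Dpm2 (log2FC 0.38 to 0.39). In females the B3galnt2 call was lost without any one of F1, F2, F5, F6, F7, F8, F9, F10 and M6 (log2FC -0.92 to -0.75), and the Rxylt1 call without any one of F1, F6, F7, F8, F9, F10 and F11 (log2FC -0.45 to -0.37).

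Integrin alpha 7 beta 1 is the other laminin receptor of the fiber, and all 10 genes of its linkage were tested. Itga7, the alpha 7 chain, rose in males (log2FC 0.94 ± 0.11 (SE), adjusted p = 8.32e-07) and in females (log2FC 1.04 ± 0.11 (SE), adjusted p = 2.57e-06). Tln2 (talin 2) rose in males (log2FC 0.91, adjusted p = 3.08e-05), and Parva (alpha-parvin) rose in females (log2FC 1.38, adjusted p = 4.44e-04). The Parva call was lost without F6 and F10 (log2FC 0.87). In each sex 2 of the 10 rose and none fell, beside 26.3% of all genes called in males and 13.4% in females, with medians of -0.04 in males and 0.09 in females.

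**Figure D5:**
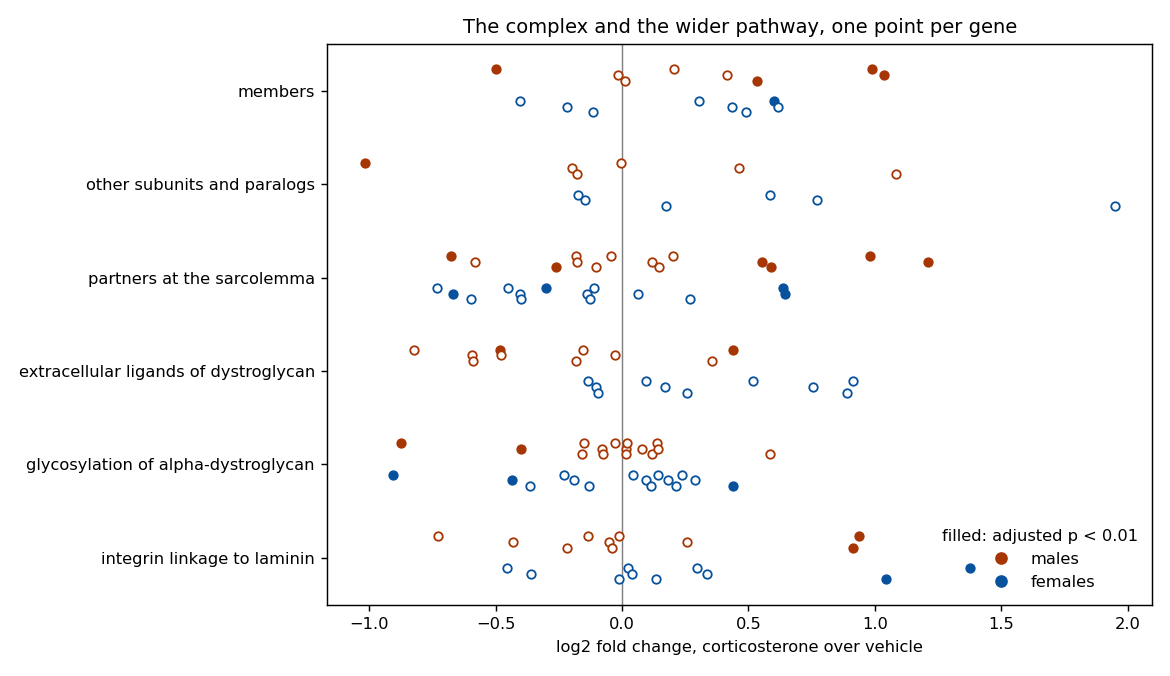
Log2 fold change for corticosterone over vehicle of every tested gene of the 8 members and the 5 lists of the wider pathway, males and females in separate strips, 1 point per gene. Filled points pass an adjusted p-value of 0.01. The rightmost filled male point is that of Des (1.21) and the leftmost that of Sntb2 (-1.02).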

How the data were processed

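Quadriceps RNA of 23 mice was sequenced by the authors as stranded, 100 bp paired-end libraries. Per the labels and the paper's methods, reads were aligned with STAR 2.7.3a to mm10 and unique pairs were counted per gene of Ensembl 97 with HTSeq 0.12.4, using the strand. The authors deposited raw counts for 55573 gene IDs without normalization. The 5 summary entries, 10.7% to 15.3% of a mouse's read pairs, were left out. Gene counts were 20904150 to 21984477 per mouse, so depth differed little. The TMM factors that scale them differed more, from 0.833 (M4) to 1.21 (F10), with F6 at 1.15. GENCODE M21 gave symbols and positions (55480 IDs matched).

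Tests were run with edgeR 4.0.16 in R 4.3.3 (TMM, quasi-likelihood test, a mean for each of the 4 groups, all 23 mice, log2 CPM with a prior count of 1). The test covered the 13049 genes that exceeded 20 normalized counts in 4 or more mice of a group, after the paper's filter, with Benjamini-Hochberg adjustment over all of them and a threshold of 0.01. The paper's methods pair this threshold with a log2FC beyond 1 in either direction, which was an alternative here. Its count of genes shared by the sexes cites the adjusted p-value only. DESeq2 1.42.0, limma 3.58.1 (voom with sample quality weights), other filters and scalings, each sex alone, a replicate block and leaving out mice were alternatives. Scripts were tested on simulated data. Groups followed the labels. The paper says that mice were group housed, and no source gives the cage or batch of each mouse. The p-values treat mice as independent, and effects of cage or batch within their spread cannot be told apart. The members and lists were chosen with earlier results of these data known. Named from a list were genes past the threshold in either sex and, where fewer than 3 passed, the 3 with the smallest p. Some items of the lists are not reported here. Intervals and ranges cover these libraries only.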

Additional observations from a re-analysis of the deposited data

How the results depend on the processing

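In males Dmd passed in all 34 alternatives (log2FC 0.92 to 1.18), and Dag1 and Dtna in all but that of a log2FC beyond 1, which left 1 male call (Dmd) and none elsewhere. Leaving out single mice gave 4 to 5 calls of the 8 genes in males, 0 to 3 in females and 1 to 2 between the treated sexes. The female count of 1 depended on the setting. It was 2 with DESeq2 (Dmd and Utrn), 3 with limma-voom (Dmd, Utrn and Sgca), 6 at a threshold of 0.05, 5 with scaling by library size only, 3 without F6 and F10, and 0 with no filter beyond 1 count, with each sex fitted alone, with a log2FC beyond 1, or without the 9 mice with slow fiber markers. It was 0 without F1 or F2 and 3 without F8. The count between the treated sexes was 1 with no filter beyond 1 count (Sgca) and 1 without the 9 slow fiber mice (Dtna, with both Utrn and Sgca lost), and 0 with a log2FC beyond 1, without F6 and F10, or without the 5 mice with hepatocyte markers. Scaling by library size only, leaving out sets of mice by their markers, and the pair F6 and F10 were chosen after seeing the data. The interaction and the vehicle comparison had 0 calls in every alternative run. Scaling by library size moved the median log2FC of all genes from -0.02 to -0.10 in males, from -0.05 to -0.17 for the interaction and from -0.03 to -0.20 between the treated sexes. The higher calls among all calls went from 50.2% to 35.5%, from 53.3% to 66.7% and from 39.9% to 15.8% in these comparisons.

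Signs turned only for values that were near 0 and had not passed, and the cause was not tested. For Utrn between the vehicle-treated sexes, the log2FC was 0.0041 with DESeq2, 0.0041 with the median of ratios, 2.0e-05 with filterByExpr, 0.0058 with no filter, 0.045 with limma-voom, 0.024 without the hepatocyte marker mice and 0.22 without the slow fiber mice, and -0.076 to 0.11 over single mice left out. For Utrn in males it was -0.038 with limma-voom, -0.071 by library size and -0.045 without the hepatocyte marker mice (-0.037 to 0.073 over single mice), and for Sgca in males 0.017 with limma-voom and 0.12 without the hepatocyte marker mice (-0.079 to 0.041). Sgcb in females was 0.013 without F6 and F10 and 0.0099 without the hepatocyte marker mice. Between the treated sexes, Dag1 was -0.11 by library size, -0.075 without F6 and F10 and -0.043 without the hepatocyte marker mice, and Sgcb was -0.0093 by library size. Sgcd there was 0.023 with no filter, 0.0088 without the hepatocyte marker mice and 0.33 without the slow fiber mice (-0.13 to 0.046 over single mice), and Sspn was 0.034 and 0.093 (-0.14 to 0.0014). Sgcd was -0.063 between the vehicle-treated sexes (-0.0079 to 0.11) and 0.39 for the interaction (-0.18 to 0.00077) without the slow fiber mice.

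The replicate numbers were not taken as pairs in the main test. Of 11 same-numbered male and female mice of 1 treatment, 7 had deviations correlated over 0.1 and 4 correlated best with their own number. The correlations were 0.08 to 0.48 with vehicle and -0.38 to 0.24 with corticosterone. Whether the numbers follow a shared order of processing was not tested. With the numbers as a block, which could be fitted only between the sexes, 1 of the 8 genes (Sgca) was called between the treated sexes, where Utrn had a log2FC of -0.62 (adjusted p = 0.017), and the log2FC of Utrn was 0.021 between the vehicle-treated sexes. Depth did not limit the counts, as every member had 387 counts or more in every mouse.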
